A study of Mus musculus with 15 samples.

Results

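The Cyp2c family described here comprised 10 mouse genes, Cyp2c29, Cyp2c37, Cyp2c38, Cyp2c39, Cyp2c40, Cyp2c44, Cyp2c50, Cyp2c54, Cyp2c67 and Cyp2c68, out of 55984 genes in the count table. They were taken by symbol from a list of 10 names. Of these, 9 were found under the listed symbol. Cyp2c44 was found under its current symbol, Cyp2c23, through a RefSeq synonym, and is called Cyp2c23 below. All 10 passed the filter on low counts and were among the 17488 genes tested. Hepatocytes came from wild-type (WT) male C57BL/6JJcl mice of 7 to 15 weeks, with no treatment given in the labels other than sorting, and were sorted live by Hoechst DNA staining into diploid cells (2n-whole), all tetraploid cells (4n-whole), tetraploid cells with a low Hoechst-height signal (4n-bottom, enriched for binucleated 2x2n cells) and tetraploid cells with a high Hoechst-height signal (4n-top, enriched for mononucleated 1x4n cells). Libraries of the same 4 mice were available for each population, except that 4n-top had mice 2, 3 and 4 only, giving 15 libraries. The paper left the 4n-top sample of mouse 1 out because of poor RNA quality. The 4n-top population was sorted once and still held binucleated cells.

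Cyp2c enzymes are microsomal cytochrome P450 monooxygenases. They oxidise drugs and steroids, and several convert arachidonic acid to epoxyeicosatrienoic acids (EETs) or to hydroxylated fatty acids. They take electrons from the P450 reductase POR, and soluble epoxide hydrolase turns EETs into diols. In liver, many P450 genes are expressed around the central vein, and the nuclear receptors CAR (Nr1i3) and PXR (Nr1i2) are known inducers of Cyp2c genes.

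In the GRCm39 annotation, 9 of the 10 genes lay in a single cluster on chromosome 19 from 39257849 to 40102430, a span of 845 kb, in the order Cyp2c29, Cyp2c38, Cyp2c39, Cyp2c67, Cyp2c68, Cyp2c40, Cyp2c37, Cyp2c54 and Cyp2c50. Cyp2c23 lay 3891 kb beyond the cluster, at 43993451 to 44017653 of the same chromosome. Each canonical transcript had 9 exons. The coding sequences fell into close subsets. Cyp2c40 was 98.1% identical to Cyp2c68 and 97.7% to Cyp2c67, Cyp2c37 was 96.1% identical to Cyp2c50, Cyp2c50 was 95.2% identical to Cyp2c54, and Cyp2c38 was 94.2% identical to Cyp2c39. Cyp2c23 stood apart, with 62.9% to 66.3% identity to the other 9. Because of this likeness, reads can be hard to assign. Of all 100-base windows of the canonical transcript, 29.1% in Cyp2c40, 23.6% in Cyp2c67, 19.2% in Cyp2c68, 8.9% in Cyp2c50, 4.7% in Cyp2c37, 4.3% in Cyp2c54 and 2.5% in Cyp2c23 also occurred in a transcript of another gene, against 0.0% in Cyp2c29, Cyp2c38 and Cyp2c39. Values of Cyp2c40, Cyp2c67 and Cyp2c68 are therefore uncertain with respect to one another and to the neighbouring Cyp2c69. Of 50-base windows, 30.2% in Cyp2c37, 29.3% in Cyp2c50 and 15.0% in Cyp2c54 were shared, mainly within this trio. The same limit thus applies, to a lesser degree, to the likeness of these genes below. The annotated span of Cyp2c29 (39257849 to 39319157) also overlaps the pseudogene Cyp2c53-ps on the same strand, but at its 5' end only, up to 39263429. Going by the shift of the other windows between builds, the RefSeq start used for its promoter window below lies inside this span, beyond the overlap.

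Promoter windows, from 250 bases before to 50 bases after the gene start, were available from RefSeq (GRCm38.p6) for 8 of the 10 genes. The windows of Cyp2c37 and Cyp2c50 are shown because their sequences were alike (89.5% identity) and their fold changes were close. Those of Cyp2c40 and Cyp2c68 are shown because they were the most alike (94.4% over 266 aligned bases), while their fold changes were far apart. Cyp2c29 is shown as the cluster gene with the highest level per kb in 4n-whole. The windows are chr19:39286835-39287134 (Cyp2c29, forward strand), chr19:39992174-39992473 (Cyp2c37, forward strand), chr19:40089429-40089728 (Cyp2c50, forward strand), chr19:39812765-39813064 (Cyp2c40, reverse strand) and chr19:39741052-39741351 (Cyp2c68, reverse strand) of GRCm38.p6, each written in the direction of transcription. Capitals mark matches to the motifs searched.
Cyp2c29: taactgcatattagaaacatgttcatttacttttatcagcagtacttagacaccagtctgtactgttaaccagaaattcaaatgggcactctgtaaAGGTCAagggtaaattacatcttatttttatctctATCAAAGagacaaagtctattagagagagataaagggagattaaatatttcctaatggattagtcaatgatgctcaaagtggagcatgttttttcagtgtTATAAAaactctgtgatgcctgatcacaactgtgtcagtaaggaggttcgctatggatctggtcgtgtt
Cyp2c37: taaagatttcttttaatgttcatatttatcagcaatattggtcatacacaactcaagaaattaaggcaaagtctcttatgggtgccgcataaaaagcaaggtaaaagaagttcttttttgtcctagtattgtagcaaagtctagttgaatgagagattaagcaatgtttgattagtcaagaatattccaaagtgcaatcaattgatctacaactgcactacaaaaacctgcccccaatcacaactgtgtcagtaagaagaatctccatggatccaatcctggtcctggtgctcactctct
Cyp2c50: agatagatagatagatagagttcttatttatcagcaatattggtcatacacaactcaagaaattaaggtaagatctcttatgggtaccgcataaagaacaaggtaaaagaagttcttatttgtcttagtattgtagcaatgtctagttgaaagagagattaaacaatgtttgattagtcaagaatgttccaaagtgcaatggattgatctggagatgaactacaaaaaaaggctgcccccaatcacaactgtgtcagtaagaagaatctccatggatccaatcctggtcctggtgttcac
Cyp2c40: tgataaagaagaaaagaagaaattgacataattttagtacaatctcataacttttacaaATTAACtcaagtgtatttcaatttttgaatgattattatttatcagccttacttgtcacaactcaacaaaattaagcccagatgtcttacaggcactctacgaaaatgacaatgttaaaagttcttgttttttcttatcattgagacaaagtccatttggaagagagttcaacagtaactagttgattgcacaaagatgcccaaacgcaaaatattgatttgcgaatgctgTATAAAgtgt
Cyp2c68: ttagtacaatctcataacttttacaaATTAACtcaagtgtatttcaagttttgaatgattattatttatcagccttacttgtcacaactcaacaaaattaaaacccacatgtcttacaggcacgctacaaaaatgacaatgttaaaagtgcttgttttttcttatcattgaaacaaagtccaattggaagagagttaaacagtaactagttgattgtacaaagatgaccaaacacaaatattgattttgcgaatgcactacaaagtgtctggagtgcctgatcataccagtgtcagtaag
Motifs were searched on both strands. The letters TATAAA were in 5 of the 9 windows listed under these symbols and in 13.6% of 32851 RefSeq windows. The nuclear receptor letters AGGTCA were in 2 of 9 against 16.3%, and the TCF/LEF core ATCAAAG in 3 of 9 against 3.7%. Cyp2c39 has 2 of these windows, and 1 of them lies outside the annotated gene. The second TCF/LEF core TTCAAAG was in 0 of 9 against 5.1%, the HNF1 letters GTTAAT in 2 of 9 against 7.1%, and the C/EBP letters TTGCAA in 1 of 9 against 6.2%. In Cyp2c29 the AGGTCA match ran from -154 to -149 and the ATCAAAG match from -119 to -113, counted from the gene start. RefSeq lists 2 separate starts under the symbol Cyp2c39, with windows starting at 39347096 and 39510572 of chromosome 19 (GRCm38.p6). The annotated Cyp2c39, from 39499306 to 39558011 in GRCm39, is too short to span both. Going by the shift of the other windows between builds, the first lies upstream of it, near the start of the pseudogene Cyp2c72-ps (39335811 in GRCm39). That window held 1 of the AGGTCA and 1 of the ATCAAAG matches counted above. The windows of Cyp2c37 and Cyp2c50 held none of these letters. Cyp2c40 and Cyp2c68 shared the HNF1 letters on the reverse strand. The TATAAA letters of Cyp2c40 ran from 40 to 45, downstream of the annotated gene start, and those of Cyp2c29 from -19 to -14.

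Library totals ranged from 22049498 counts (4n-whole of mouse 2) to 42096421 counts, and 3 counts corresponded to 0.0713 to 0.136 counts per 1000000 (CPM). The 10 hepatocyte markers summed to 89382 to 121620 CPM in every library. Markers of other liver cells were low: the highest library sums were 22.4 CPM for 6 endothelial, 7.64 for 6 Kupffer, 5.00 for 6 stellate and 1.15 for 6 lymphocyte markers. Bile duct markers summed to 34.9 to 47.7 CPM in 2n-whole and 16.6 to 32.0 CPM in the 4n populations, mostly from Sox9 and Spp1. Of that list, Spp1 and Sox9 fell in 4n-whole against 2n-whole (log2 fold changes of -2.81 and -0.62). Krt19, Krt7, Epcam and Cftr had 0 counts in all 3 4n-top libraries and at most 1.33 CPM elsewhere. The part of these cells in the Cyp2c results was not tested. CPM values are scaled by the trimmed mean of M-values (TMM). In such bulk samples, fewer cells of a type and less RNA per cell cannot be told apart.

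The main comparison asked whether tetraploid hepatocytes differ from diploid ones. Cyp2c transcripts of the cluster were higher in 4n-whole than in 2n-whole. Of the 10 genes, 8 rose, all but Cyp2c39 and Cyp2c23, and 0 fell, by edgeR's quasi-likelihood test with the mouse in the model (called at adjusted p under 0.05 with more than 0.5 log2 units of change). Over all tested genes, 3.47% were called, 1.74% as higher. The median log2 fold change of the 10 genes was 1.37, against -0.01 for all genes. The 8 fold changes ran from 1.502-fold (Cyp2c68) to 4.06-fold (Cyp2c40). The summed CPM of the 10 genes was 721 ± 96.4 (SD, n = 4) in 2n-whole, 1010 ± 285 (n = 4) in 4n-bottom, 1488 ± 586 (n = 3) in 4n-top and 1412 ± 531 (n = 4) in 4n-whole.

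**Figure D1:**
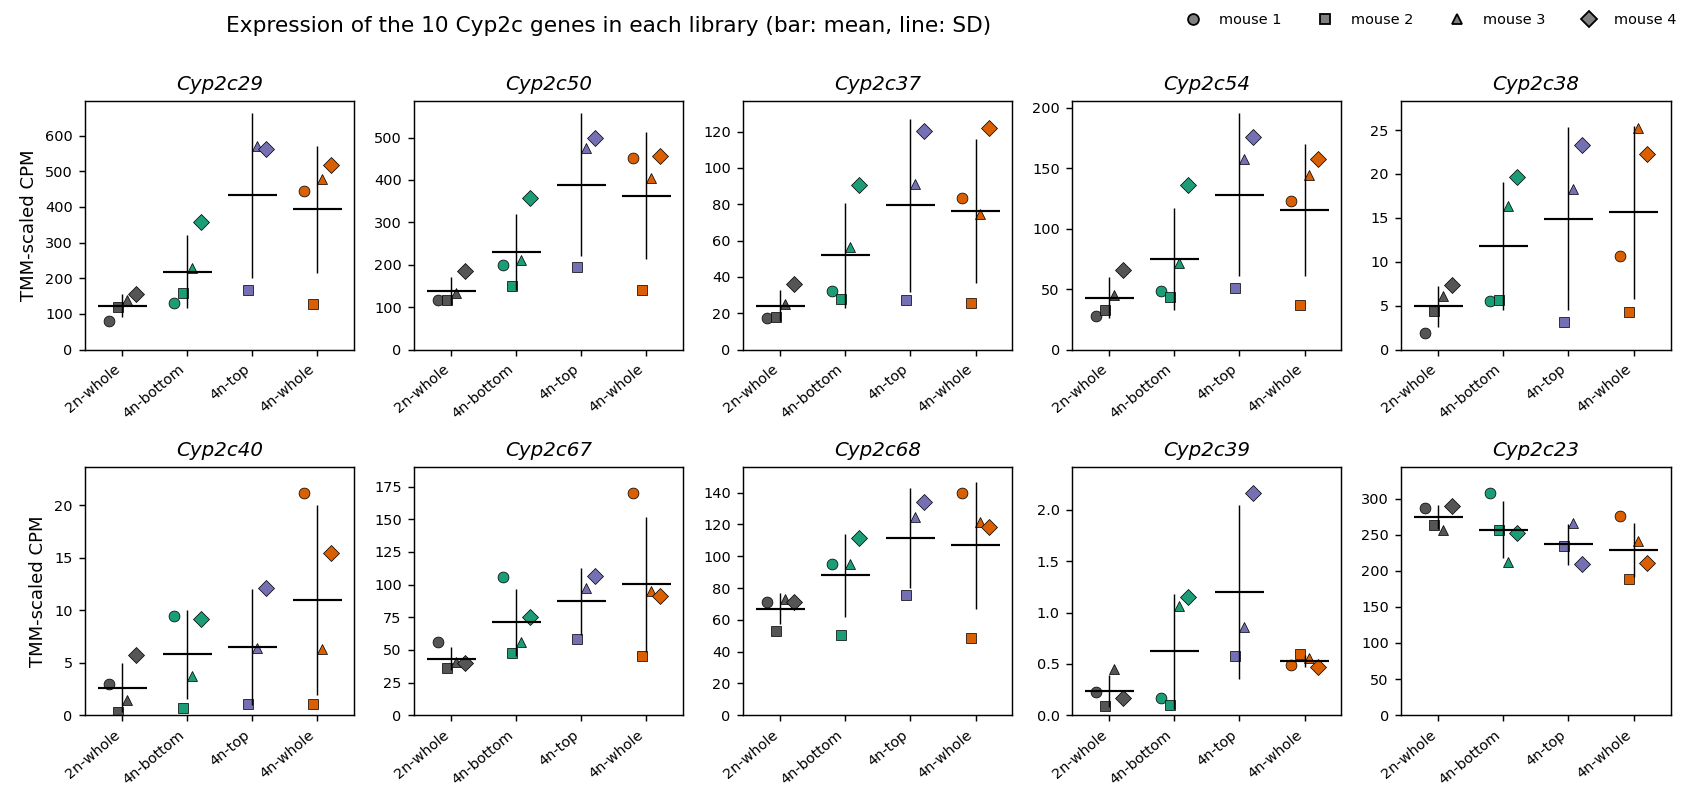
TMM-scaled CPM (vertical axes, linear) of the 10 genes in 2n-whole, 4n-bottom, 4n-top and 4n-whole, with a point for each library, its shape giving the mouse, a bar for the mean and a line for ± SD. For the 8 genes that rose in 4n-whole the mean was lowest in 2n-whole and next in 4n-bottom, and mouse 2 (squares) was lowest within 4n-whole; Cyp2c23 lay between 189 and 307 CPM in all libraries.

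Cyp2c29, a phenobarbital-inducible enzyme that forms EETs, measured 79.3, 120, 138 and 155 CPM in 2n-whole of mice 1 to 4. In 4n-whole it measured 445, 129, 480 and 519 CPM. The 4n-bottom values were 130, 158, 230 and 358 CPM, and the 4n-top values of mice 2 to 4 were 166, 570 and 563 CPM. Mice 1, 3 and 4 thus lay well above their diploid libraries in 4n-whole, whereas mouse 2 lay within the diploid range. Cyp2c29 rose 2.95-fold in 4n-whole (log2 fold change 1.56 ± 0.23 SE, adjusted p = 6.16e-05).

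Cyp2c50, an arachidonate-metabolising enzyme, measured 117, 117, 134 and 186 CPM in 2n-whole of mice 1 to 4. Its 4n-whole values were 452, 141, 405 and 455 CPM, with mouse 2 again apart from the other 3. In 4n-bottom it measured 200, 149, 212 and 357 CPM, and in 4n-top of mice 2 to 4 it measured 194, 475 and 498 CPM. The lowest 4n-top library exceeded the highest 2n-whole library. The gene rose 2.44-fold in 4n-whole (log2 fold change 1.29 ± 0.16 SE, adjusted p = 7.42e-06).

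Its close relatives moved by like amounts. Cyp2c37, which hydroxylates arachidonic acid, rose 2.92-fold in 4n-whole (from 24.1 ± 8.68 to 76.4 ± 39.7 CPM, mean ± SD, n = 4 each, adjusted p = 3.68e-06). Cyp2c54, another arachidonate-metabolising enzyme, rose 2.53-fold (from 42.9 ± 16.9 to 115 ± 54.4 CPM, adjusted p = 4.16e-05). Within mice, the log2 ratio of Cyp2c37 over Cyp2c50 changed between 2n-whole and 4n-whole by 0.32, 0.24, -0.03 and 0.47 in mice 1 to 4. Cyp2c38, an epoxygenase, was far less abundant and rose 2.89-fold, from 4.91 ± 2.37 to 15.6 ± 9.86 CPM (adjusted p = 6.41e-04).

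Cyp2c40 measured 2.98, 0.302, 1.49 and 5.77 CPM in 2n-whole of mice 1 to 4 and 21.1, 1.04, 6.29 and 15.45 CPM in 4n-whole. It was low in mouse 2 in every population, at 0.302 to 1.11 CPM (10 to 48 counts), but in that mouse too the 4n-whole value exceeded the 2n-whole one. The log2 fold change in 4n-whole was 2.02 ± 0.24 SE (adjusted p = 2.55e-06), the steepest of the 10 genes. Cyp2c67 rose 2.13-fold (from 43.4 ± 8.89 to 100 ± 51.6 CPM, adjusted p = 5.62e-06).

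Cyp2c68 had the smallest rise. It measured 71.2, 52.8, 72.8 and 71.4 CPM in 2n-whole of mice 1 to 4 and 140, 48.8, 121 and 118 CPM in 4n-whole, so that mouse 2 was slightly lower and the other 3 higher. Its log2 fold change was 0.59 ± 0.12 SE (adjusted p = 0.0038). Without mouse 1 it was 0.45 and was not called, which left 7 genes called (760 of all 16245 genes tested). Against Cyp2c68, the log2 ratio of Cyp2c40 was higher in 4n-whole than in 2n-whole by 1.86, 1.90, 1.34 and 0.69 in mice 1 to 4. The pair was picked after its values were seen, and its difference was not tested.

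Cyp2c39 was near the detection limit, with 3 to 13 counts in the 2n-whole libraries and 15 to 21 in 4n-whole. It averaged 0.234 ± 0.155 CPM in 2n-whole and 0.531 ± 0.0598 CPM in 4n-whole. These groups did not overlap, the single such case among the 10 genes (2.74% of all genes did so in this direction), but the log2 fold change of 1.40 ± 0.78 SE was not called (adjusted p = 0.329).

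Cyp2c23, an epoxygenase also known from kidney, did not follow the cluster. It measured 287, 264, 256 and 290 CPM in 2n-whole of mice 1 to 4 and 276, 189, 241 and 211 CPM in 4n-whole. All 4 mice were lower in 4n-whole, and the groups overlapped. The log2 fold change was -0.27 ± 0.10 SE and was not called (adjusted p = 0.111). In the other contrasts with 2n-whole it was -0.10 ± 0.10 SE (4n-bottom) and -0.15 ± 0.11 SE (4n-top), with adjusted p = 0.784 and 0.668.

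**Figure D2:**
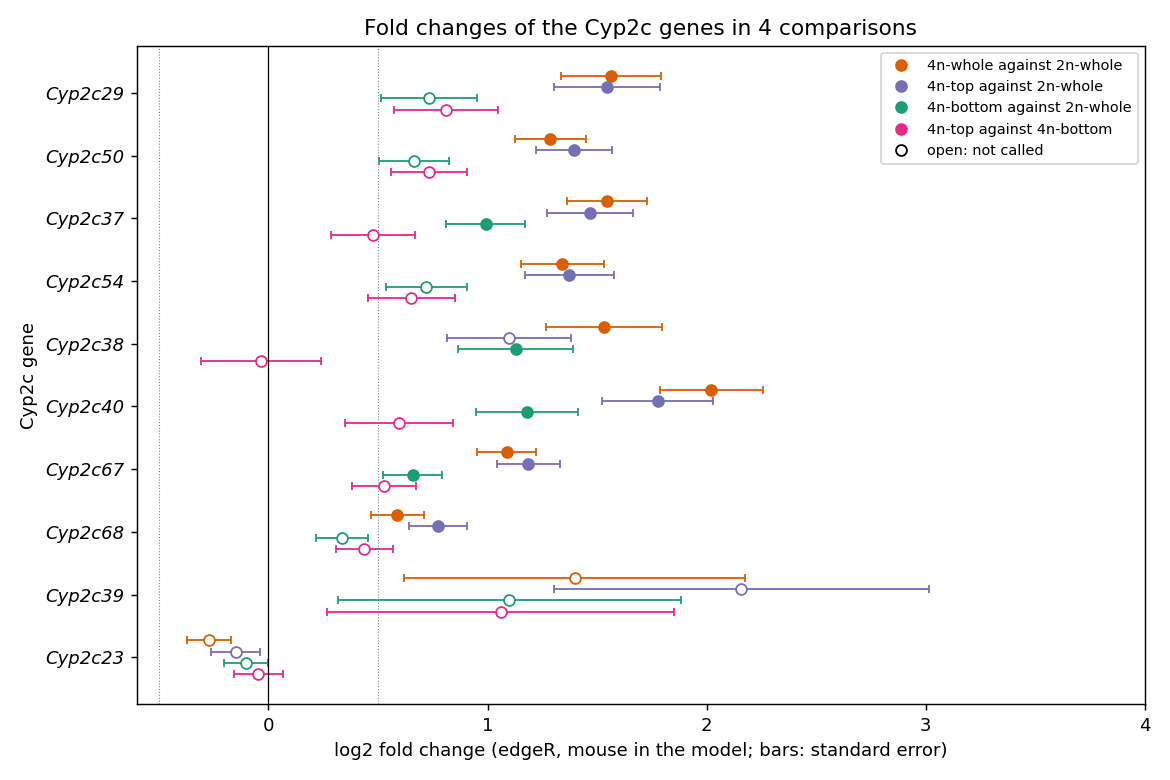
Log2 fold changes (horizontal axis) with standard errors of the 10 genes in 4 comparisons; filled points were called, open points were not, and dotted lines mark ± 0.5. In the 4n-whole and 4n-top contrasts with 2n-whole most genes lie above 1, the 4n-bottom estimates of the 9 cluster genes lie below the 4n-whole ones, and Cyp2c23 lies near or below 0 throughout.

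The rise in 4n-whole differed in size between mice. Over the 9 cluster genes, the median within-mouse log2 ratio of 4n-whole over 2n-whole was 2.13 in mouse 1, 0.26 in mouse 2, 1.60 in mouse 3 and 1.42 in mouse 4. In mouse 2 only 7 of the 9 were higher, against 9 of 9 in each of the others. Of the 10 genes, 7 were higher in every mouse, as were 11.8% of all genes. The mouse 2 library of 4n-whole was also the shallowest, at 22049498 counts with a cluster sum of 431 CPM. The 4n-bottom and 4n-top libraries of mouse 2 had 40831810 and 41438193 counts and cluster sums of 483 and 577 CPM. The part of depth was not tested. Without mouse 2, 8 genes were again called (365 of all 18413 genes tested). The calls rested on the comparison within mice: with the mouse left out of the model, none of the 10 passed (0 calls). In that fit 8 of them had an unadjusted p under 0.05, as had 2027 of all genes, and 40 of the 17488 genes were called. For Cyp2c29 that fit gave a log2 fold change of 1.68 with adjusted p = 0.101.

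**Figure D3:**
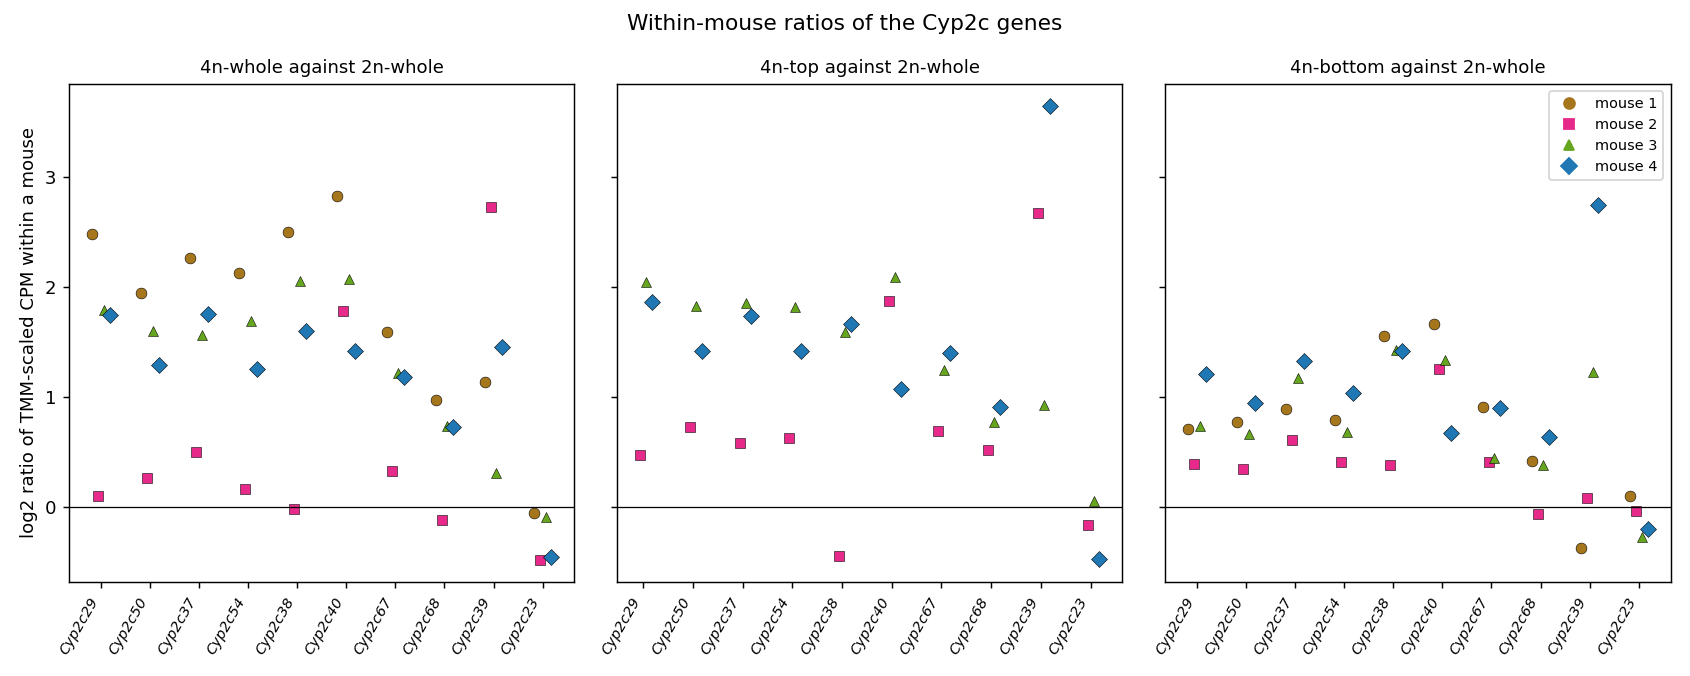
Log2 ratios of TMM-scaled CPM within each mouse (vertical axis) for the 10 genes in 3 contrasts with 2n-whole, a point for each mouse. Mouse 2 (squares) lies lowest for most cluster genes, with a median of 0.26 in 4n-whole against 1.42 to 2.13 in the other mice; Cyp2c40 and the sparsely counted Cyp2c39 are exceptions.

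The 4n-top against 4n-bottom comparison asked whether nuclear number within tetraploid cells goes with expression. Neither fraction was pure, and 4n-top was the less enriched. The paper holds that this likely weakened the differences it saw. Of the 10 genes, 0 were called, and over all genes 0.0114% were called (2 genes). The estimates were nonetheless mostly positive: 8 of 10 were above 0, with a median of 0.56 against 0.00 for all genes, and 7 had an unadjusted p under 0.05, as had 2.79% of all genes (1.19% as higher). Cyp2c50 had a log2 fold change of 0.73 ± 0.17 SE (unadjusted p = 2.7e-04, adjusted p = 0.468) and Cyp2c29 one of 0.81 ± 0.24 SE (unadjusted p = 0.0021, adjusted p = 1.0). Cyp2c38 stood at -0.03 ± 0.27 SE and Cyp2c23 at -0.05 ± 0.11 SE. In the 3 mice with both libraries, 6 of the 10 genes were higher in 4n-top in every mouse (10.8% of all genes), namely Cyp2c29, Cyp2c40, Cyp2c50, Cyp2c54, Cyp2c67 and Cyp2c68. For Cyp2c29 the step was largest in mouse 3, from 230 to 570 CPM, and small in mouse 2, from 158 to 166 CPM, whereas for Cyp2c68 it was largest in mouse 2 (log2 ratios of 0.58, 0.39 and 0.27 in mice 2 to 4). Groups overlapped for each of the 10 genes. The call depended on the libraries: without mouse 2, 5 of the 10 were called as higher (Cyp2c29, Cyp2c37, Cyp2c50, Cyp2c54 and Cyp2c67), as were 29 of all 18413 genes tested in that fit in either direction. DESeq2 with the mouse in the model also called 0 (49 of all 17488 genes), and the fit on these populations alone called 3 (15 of all 15015 genes).

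Each 4n subset was then compared with 2n-whole. Both contrasts share the 2n-whole libraries with the main one and are not independent of it. In 4n-top, 7 of the 10 genes rose (0.961% of all genes were called, 0.44% as higher): Cyp2c29, Cyp2c37, Cyp2c40, Cyp2c50, Cyp2c54, Cyp2c67 and Cyp2c68. Their fold changes were 1.71-fold (Cyp2c68) to 3.43-fold (Cyp2c40). In 5 of the 10 the 4n-top libraries did not overlap those of 2n-whole (4.85% of all genes). Cyp2c38 had a log2 fold change of 1.10 ± 0.28 SE with adjusted p = 0.0567, and was lower in 4n-top than in 2n-whole in mouse 2.

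In 4n-bottom, 4 of the 10 rose (0.463% of all genes were called, 0.234% as higher). These were Cyp2c37 (log2 fold change 0.99 ± 0.18 SE, adjusted p = 0.0046), Cyp2c38 (1.13 ± 0.26, adjusted p = 0.0439), Cyp2c40 (1.18 ± 0.23, adjusted p = 0.0108) and Cyp2c67 (0.66 ± 0.13, adjusted p = 0.0141). Cyp2c50 and Cyp2c54, with 0.66 ± 0.16 SE and 0.72 ± 0.19 SE, missed the threshold (adjusted p = 0.0581 and 0.0873), as did Cyp2c29 with 0.73 ± 0.22 SE (adjusted p = 0.191). Still, 7 of the 10 were higher in 4n-bottom in all 4 mice (10.2% of all genes). The count rested on single mice: it was 1 without mouse 1 (65 of all 16245 genes tested), 7 without mouse 2 (111 of 18413) and 2 without mouse 4 (49 of 18791). With the mouse left out of the model, the 4n-bottom and 4n-top contrasts with 2n-whole both gave 0 calls among the 10. Over all 17488 genes, these fits called 0 and 2. At an unadjusted p under 0.05 stood 5 and 8 of the 10 genes (866 and 1335 of all genes).

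Against the unfractionated 4n-whole, 0 of the 10 genes were called for either subset (0.00572% of all genes in 4n-whole against 4n-bottom and 0.0% in 4n-top against 4n-whole). For 4n-whole against 4n-bottom, 7 of the 10 had an unadjusted p under 0.05 (5.57% of all genes), with a median log2 fold change of 0.49. There, Cyp2c40 was at 0.84 ± 0.22 SE (adjusted p = 0.316), and without mouse 2 the count was 5 (Cyp2c29, Cyp2c37, Cyp2c50, Cyp2c54 and Cyp2c67), of 29 calls over all 18413 genes. ComBat-seq followed by DESeq2 called 1, Cyp2c40, of 30 calls over all 39304 genes. For 4n-top against 4n-whole, 0 of the 10 had an unadjusted p under 0.05 (4.0% of all genes) and the median was 0.07. Among the 8 cluster genes without Cyp2c39, these estimates ran from -0.44 ± 0.28 SE (Cyp2c38) to 0.19 ± 0.13 SE (Cyp2c68). The order of the mean levels was the same for the 8 genes that rose in 4n-whole, with 2n-whole lowest, 4n-bottom next, and 4n-top and 4n-whole above both. As unpaired means, the last pair did not differ beyond their spread, and the 4n-top means lack mouse 1. Within mice 2 to 4, the summed CPM of the 9 cluster genes was higher in 4n-top than in 4n-whole (log2 ratios of 0.42, 0.19 and 0.12).

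Between genes, levels were compared as CPM per kb of the canonical transcript. In 2n-whole, Cyp2c23 was the most abundant, at 141 ± 8.75 CPM per kb, followed by Cyp2c50 at 72.8 ± 17.1 and Cyp2c29 at 69.0 ± 18.2, which did not differ beyond their spread. Cyp2c68 stood at 37.7 ± 5.36 and Cyp2c67 at 25.0 ± 5.12. Cyp2c54, Cyp2c37, Cyp2c38, Cyp2c40 and Cyp2c39 were lower, from 14.0 ± 5.52 down to 0.0819 ± 0.0542 CPM per kb. In 4n-whole, Cyp2c29 (220 ± 100) and Cyp2c50 (191 ± 78.9) exceeded Cyp2c23 (118 ± 19.3) on average. As a share of the summed CPM per kb of the 10 genes, Cyp2c23 went from 38.0% ± 4.21 (SD, n = 4) in 2n-whole to 26.6% ± 7.93 in 4n-bottom, 18.1% ± 9.13 in 4n-top (n = 3) and 18.2% ± 8.00 in 4n-whole. Cyp2c29 went the other way, from 18.2% ± 3.64 in 2n-whole to 28.8% ± 4.97 in 4n-whole. The share of Cyp2c68 was 10.1% ± 1.36 and 8.21% ± 0.529 in these populations. These shares are a description and were not tested.

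The table held 10 further Cyp2c genes and pseudogenes, of which 4 passed the filter. Cyp2c69, which lies next to Cyp2c40 in the cluster, rose in 4n-whole (log2 fold change 1.57 ± 0.35 SE, adjusted p = 0.0076), from 1.19 ± 1.03 to 3.51 ± 2.85 CPM, and shared the low level of mouse 2, at 0.0905 to 0.323 CPM. Cyp2c70, at the end of the cluster and known for making muricholic acids, had 341 ± 119 CPM in 2n-whole and 372 ± 164 CPM in 4n-whole (log2 fold change 0.09 ± 0.09 SE, adjusted p = 0.649). Cyp2c55, at the other end, had 2.73 ± 1.48 and 3.01 ± 1.68 CPM (0.23 ± 0.37 SE, adjusted p = 0.798). Cyp2c53-ps was at most 0.442 CPM and was not called (adjusted p = 0.469). The untested Cyp2c65, Cyp2c66, Cyp2c52-ps, Cyp2c71-ps, Cyp2c72-ps and Cyp2c73-ps were at or below 0.844 CPM in every library.

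**Figure D4:**
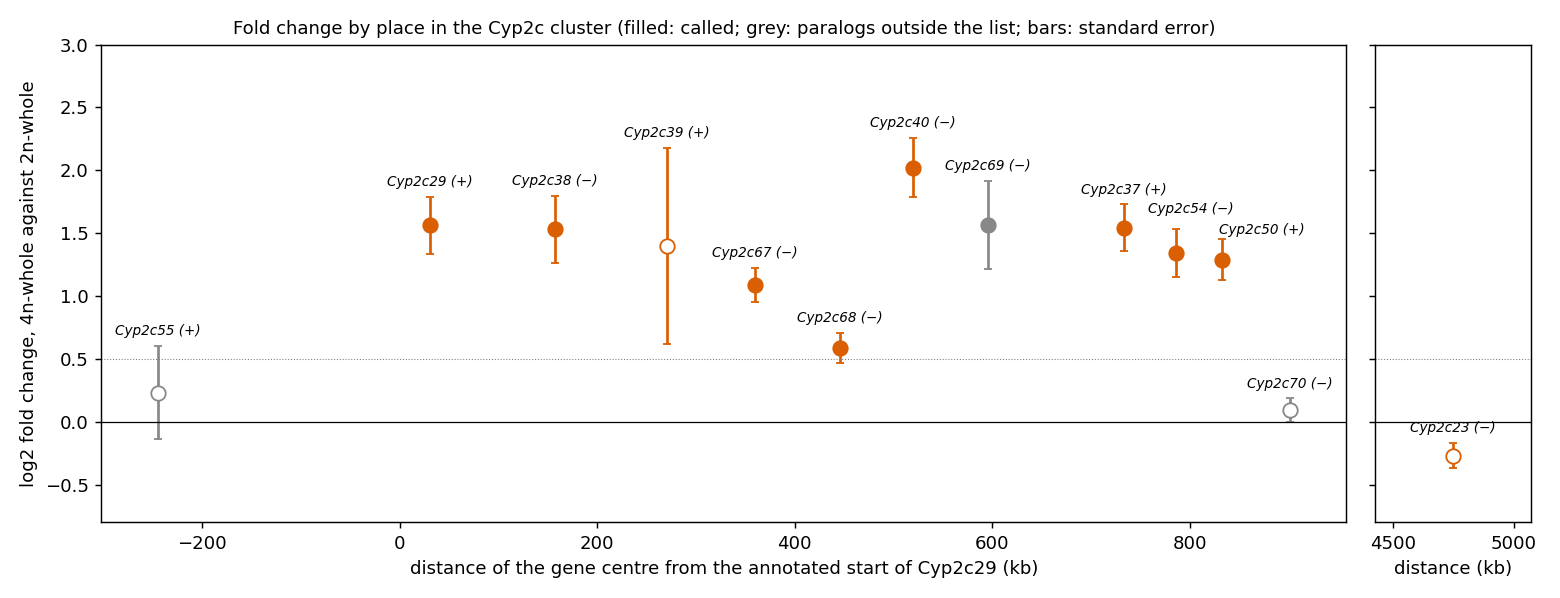
Log2 fold change of 4n-whole against 2n-whole with its standard error (vertical axis) for the tested Cyp2c genes by distance in kb from the annotated start of Cyp2c29 (horizontal axis, with Cyp2c23 in a panel of its own), the strand in brackets; filled points were called and grey points are paralogs outside the 10 genes. From Cyp2c29 to Cyp2c50 all fold changes are above 0.5, the flanking Cyp2c55 and Cyp2c70 are at 0.23 and 0.09, and Cyp2c23 is at -0.27; Cyp2c53-ps is not drawn.

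Among the electron donors and heme carriers of microsomal P450s, 1 of 9 tested genes rose in 4n-whole and 0 fell. This was Por, the P450 reductase, from 214 ± 67.1 to 346 ± 141 CPM (log2 fold change 0.65 ± 0.10 SE, adjusted p = 7.74e-05); it also rose in 4n-top against 2n-whole (0.59 ± 0.11 SE, adjusted p = 0.0015). Of the 4 epoxide hydrolase genes, 2 were tested and 0 were called in any comparison, with 1 at an unadjusted p under 0.05 in 4n-whole against 2n-whole. Of 15 tested Cyp2j and Cyp4 genes, 0 rose and 2 fell in 4n-whole. Cyp4a12b, a fatty acid hydroxylase, went from 107 ± 14.7 to 66.3 ± 15.5 CPM (-0.71 ± 0.11 SE, adjusted p = 8.01e-05), and Cyp4a31 from 14.0 ± 7.24 to 8.94 ± 2.74 CPM (-0.56 ± 0.17 SE, adjusted p = 0.0429).

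Of 17 transcription factor genes known to act on Cyp2c genes, 2 rose and 0 fell in 4n-whole. Nr1i3, which encodes CAR, went from 9.04 ± 6.41 to 23.8 ± 12.6 CPM (log2 fold change 1.53 ± 0.16 SE, adjusted p = 6.72e-07), and also rose in 4n-bottom (0.88 ± 0.16 SE) and 4n-top (1.16 ± 0.18 SE) against 2n-whole. Ahr, the aryl hydrocarbon receptor, rose from 14.2 ± 6.17 to 27.3 ± 8.29 CPM (0.98 ± 0.16 SE, adjusted p = 3e-04). The median of the 17 was 0.09. Of 9 growth hormone signalling genes, 1 rose, Socs2, a feedback inhibitor of this pathway, with 0.62 ± 0.14 SE (adjusted p = 0.0062).

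Pericentral landmark genes of liver zonation rose with the Cyp2c genes in the contrasts with 2n-whole. Of 12 pericentral landmarks, none of them among the 10 genes, 10 rose in 4n-whole against 2n-whole, 7 in 4n-bottom and 7 in 4n-top, and their median log2 fold change in 4n-whole was 1.61. Cyp1a2, a caffeine-metabolising P450, rose from 121 ± 19.5 to 402 ± 158 CPM (log2 fold change 1.65 ± 0.15 SE). Of 12 periportal landmarks, 3 fell in 4n-whole (Cyp2f2, Cdh1 and Hsd17b13, from -0.74 to -0.61) and 0 rose. The summed CPM of the pericentral list was 615 to 985 in 2n-whole. In 4n-whole it was 2963, 1026, 3095 and 3322 in mice 1 to 4, in 4n-bottom 1105, 1001, 2052 and 2345, and in 4n-top of mice 2 to 4 it was 1034, 3575 and 3134. Mouse 2 was thus low in all its 4n libraries for the pericentral list as well. In 4n-top against 4n-bottom, 0 of the 12 pericentral landmarks rose and 1 fell, and 7 of the 12 estimates were above 0. Their median was 0.115, against 0.56 for the 10 Cyp2c genes. The one that fell was Glul, glutamine synthetase of the hepatocytes nearest the central vein (-0.90 ± 0.16 SE, adjusted p = 0.0499). Slc1a2 stood at -1.08 ± 0.20 SE (adjusted p = 0.0663) and Cyp1a2 at 0.60 ± 0.16 SE (adjusted p = 0.907). In 4n-top against 4n-whole, 2 of the 12 were above 0, with a median of -0.28, against 0.07 for the 10 Cyp2c genes. The part of a shift in zonal make-up in the Cyp2c values was not tested.

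**Figure D5:**
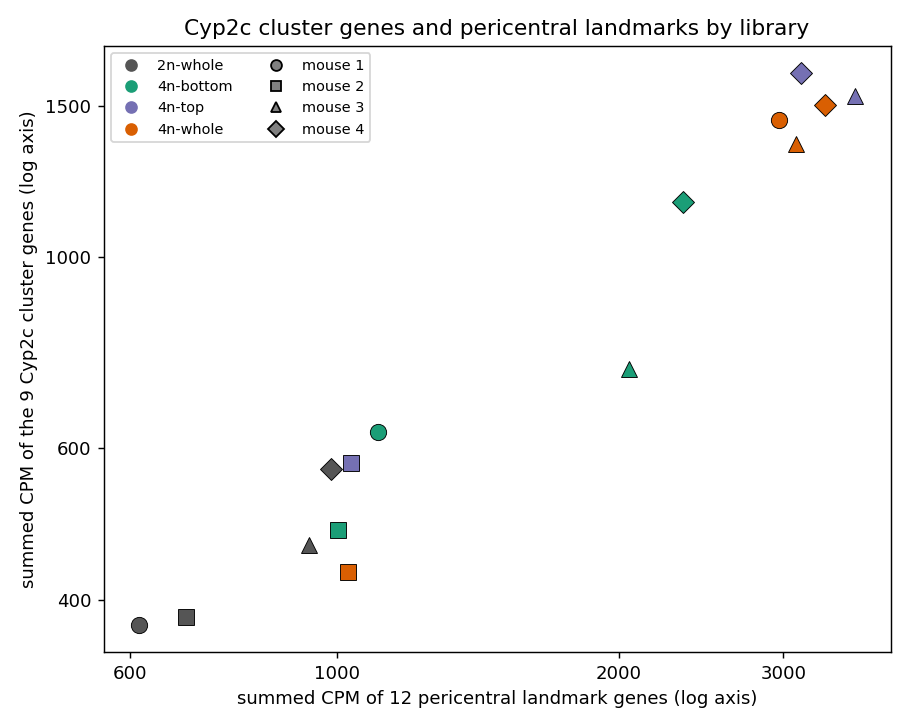
Summed CPM of the 9 Cyp2c cluster genes (vertical log axis) against summed CPM of 12 pericentral landmark genes (horizontal log axis) in the 15 libraries, coloured by population, with the shape giving the mouse. Libraries of 2n-whole and all libraries of mouse 2 lie at the lower left, with pericentral sums of at most 1034. The 4n-bottom library of mouse 1 lies close to them (pericentral sum 1105, cluster sum 627). The 4n-whole and 4n-top libraries of the mice other than mouse 2 lie at the upper right.

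As a description over the 15 libraries, which share mice and populations and from which the mouse effect was removed, the 8 cluster genes without Cyp2c39 correlated with one another at Pearson's r from 0.781 to 0.996 (28 pairs, median 0.923). The highest pair was Cyp2c50 with Cyp2c54. Cyp2c23 correlated with the other 9 at -0.698 to -0.269. Of 6839 other genes with a mean of at least 10 CPM, those most like the mean z-score of the 10 genes were Cyp2e1 (0.982), Gsta3 (0.977), Rgn (0.976), Rnase4 (0.973) and Pon1 (0.972). Cyp2e1 and Rgn are also on the pericentral list. The gene most like Cyp2c37 was Cyp2e1 (0.992), that most like Cyp2c38 was Oat (0.946), that most like Cyp2c40 was Tbx3 (0.970), that most like Cyp2c68 was Slc16a10 (0.959), that most like Cyp2c39 was Fggy (0.878) and that most like Cyp2c23 was Tab2 (0.979). For Cyp2c29, Cyp2c50, Cyp2c54 and Cyp2c67 it was another of the 10 genes.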

How the data were processed

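RNA from sorted hepatocytes of individual mice was made into libraries with the SMART-Seq Stranded Kit from 20 ng of total RNA. Per the labels and the methods, the authors aligned reads to GRCm39 with STAR 2.7.11a and counted them per gene with featureCounts. The annotation, the strand setting and the treatment of multi-mapping reads are not given in the sources used here. The deposited values are raw read counts per gene. Of counts from 1 to 10, 74.2% to 81.4% per library were even, so 1 fragment may stand for more than 1 count. The floor of 3 counts covers counting only. SD is the spread between libraries and SE comes from the edgeR fit, so both hold more than counting error.

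Counts were filtered (filterByExpr, minimum count 10, minimum total 15), scaled by TMM and tested with edgeR 4.0.16 in R 4.3.3 (quasi-likelihood F test) on all 15 libraries, with population and mouse as terms. Same-numbered libraries come from the same animal, and residuals of libraries of a mouse correlated at 0.0845 to 0.227. P-values were adjusted by Benjamini-Hochberg over 17488 genes. They are set against the spread left among the 15 libraries after the population and mouse terms, so level differences between mice do not enter. SE is the log2 fold change divided by the square root of F. Alternatives used DESeq2 1.42.0, ComBat-seq from sva 3.50.0, no mouse term, no filter, the compared populations alone, no limit on the fold change, DESeq2 size factors and leaving out each mouse. Correlations used log2 CPM (prior count 2) after removal of the mouse effect with limma 3.58.1. The edgeR step was tested on simulated data.

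The 10 genes and all lists were chosen with earlier results of these data known. Named outside the 10 were all other Cyp2c genes, at most 4 called genes per list by the smallest p, the 5 most like genes and the gene most like each of the 10. Lengths, positions and shared windows were taken from GENCODE M39 (GRCm39), promoters and synonyms from RefSeq (GRCm38.p6). A window was called shared where it occurred exactly in a transcript of another gene.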

Additional observations from a re-analysis of the deposited data

Results flagged for a closer look

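Of 33 sets of 4 libraries (10 genes and their sum in 2n-whole, 4n-bottom and 4n-whole), 3 held a library far from the other 3, and 1.65 are expected by chance by Dixon's test. All 3 flags fall on mouse 2, and those of the sum and of Cyp2c50 fall on the same library, 4n-whole. The sets are not independent, because the sum holds Cyp2c50 and the cluster genes vary together. The flags are therefore not separate pieces of evidence. The sum of the 10 genes in 4n-whole was 620.26 CPM in mouse 2 and 1594 to 1720 CPM in the other mice. Cyp2c50 in 4n-whole was 140.61 CPM in mouse 2 and 405 to 455 CPM in the others. Cyp2c68 in 2n-whole was 52.832 CPM in mouse 2 and 71.2 to 72.8 CPM in the others.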

How the results depend on the processing

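With no replicate block (no mouse in the model), 0 of the 10 genes were called in 4n-whole, 4n-bottom and 4n-top against 2n-whole. Over all 17488 genes, 40, 0 and 2 were called in these contrasts. ComBat-seq then DESeq2 called 1 in 4n-whole against 4n-bottom (30 of all 39304 genes). With no filter on low counts, 4 were called in 4n-top against 4n-bottom, 7 in 4n-bottom against 2n-whole and 4 in 4n-whole against 4n-bottom (25, 145 and 45 of all 39304 genes), and on the compared populations only, 3 in 4n-top against 4n-bottom and 7 in 4n-bottom against 2n-whole (15 of 15015 and 92 of 14714 genes). Each mouse was also left out, with 16245 to 18791 genes tested and the calls over all genes given in brackets. This gave 7 to 8 calls in 4n-whole against 2n-whole (244 to 1025) and 0 to 5 in 4n-top against 4n-bottom (0 to 29). It gave 1 to 7 in 4n-bottom against 2n-whole (49 to 111) and 7 to 8 in 4n-top against 2n-whole (98 to 238). It gave 0 to 5 in 4n-whole against 4n-bottom (0 to 65) and 0 in 4n-top against 4n-whole (0 to 1). The cause of these differences was not tested. Over all genes, the calls in 4n-whole against 2n-whole were 607 in the reported fit, 40 with no replicate block and 1160 with ComBat-seq then DESeq2.

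Signs changed only for estimates near 0 or with few counts, none of them called. Without the block, Cyp2c38 was at 0.333 (4n-top against 4n-bottom), Cyp2c39 at -0.222 (4n-whole against 4n-bottom), and Cyp2c29, Cyp2c37 and Cyp2c67 at 0.139, 0.053 and -0.204 (4n-top against 4n-whole). In the last contrast, Cyp2c29 was at 0.037 with ComBat-seq then DESeq2, and Cyp2c29 and Cyp2c37 were at 0.23 and 0.101 on the compared populations only. Leaving out each mouse gave -0.244 to 0.25 for Cyp2c38 and -0.2 to 0.059 for Cyp2c23 (4n-top against 4n-bottom), -0.389 to 0.92 for Cyp2c39 (4n-whole against 4n-bottom), and, for 4n-top against 4n-whole, -0.201 to 0.226 for Cyp2c29, -0.273 to 0.113 for Cyp2c37 and -0.058 to 0.22 for Cyp2c54. Of the values of single genes under the alternatives, 515 kept direction and side of the threshold, 38 gained a call, 29 lost it and 17 changed sign. Counts were few for Cyp2c39 (3 to 62) and for Cyp2c40 in mouse 2 (10 to 48), which limits the precision of their values.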
